A study of Homo sapiens with 21 samples.

Results

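The 3 peak lists made with an antibody against the HA tag in G365R and WT clones were compared. The clones derive from Jurkat cells, a human T-cell leukaemia line that has long been kept in culture. The lists were chosen by label, as all lists of the HA antibody in these genotypes, and are 3 of the 14 lists analysed from a series of 21 samples. On the chromosomes considered, 1 to 22 and X, they hold 98644 of the 791439 peaks of all 14 lists. G365R was represented by 2 knock-in clones, in which HA marked RUNX1 carrying a glycine-to-arginine change and the TY1 tag marked the wild-type protein of the same cells. WT was represented by 1 clone of parental type, in which both HA and TY1 marked wild-type protein. All cells were untreated, were fixed for 15 min, and had the fixation stopped for 5 min. The remaining lists were TY1 lists of the same clones and HA and TY1 lists of the truncating genotypes R232fs and Y287X, and the 7 control samples have no list here. Each clone is a single-cell derivative of a leukaemia line, and with 1 WT clone a difference between genotypes cannot be told apart from a difference between clones.

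RUNX1 is a transcription factor of blood development that binds DNA through its Runt domain together with the partner protein CBFB. The part of the protein beyond that domain holds regions that recruit coactivators and corepressors, and the residue changed in G365R lies there, so that the Runt domain itself is intact. In T cells RUNX1 acts at enhancers and promoters of lineage genes, and inherited RUNX1 variants predispose to leukaemia. The comparison asked whether the missense protein occupies other sites, or the same sites at another strength, than wild-type RUNX1 read through the same tag.

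Both G365R HA lists were shorter than the WT HA list. They held 30609 and 30563 peaks, a mean of 30586 ± 32.5 (SD, n = 2), against 37472 peaks in the WT clone, a ratio of 0.816. Covered length was 13.9 and 13.8 Mb in the G365R clones and 17.5 Mb in the WT clone, while the median peak width was 390, 385 and 390 bp in the same order. The G365R lists were therefore shorter in number of peaks and not in peak width, and the WT value lay outside the range of the 2 clones for number and covered length.

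A peak list does not give the number of reads. From the authors' fold enrichment and p of each peak the caller's formula returns the summit pileup (fragments covering the summit) and the local background (fragments expected there), and all pileups of the 3 lists came out within 0.05 of whole numbers. The lowest background of a list, the nearest measure of depth in these files, was 3.33 and 3.22 fragments in the G365R clones and 4.59 fragments in the WT clone, a ratio of 0.714. At that background the weakest peak listed had 12 fragments in each G365R list and 14 fragments in the WT list. Depth moved with genotype in the same direction as list length, and its part in the number of peaks was not tested.

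The authors' fold was spread alike in the 3 lists, but the strong end was less short in G365R than the weak end. Median fold was 3.99 and 4.27 in the G365R clones and 3.85 in the WT clone, and the highest fold was 89.3 and 80.3 in the G365R clones and 72.3 in the WT clone. The highest summit pileup was 469 and 473 fragments in the G365R clones and 480 in the WT clone. The lowest background was lower in G365R, and its part in the higher fold was not tested. Peaks of at least 5-fold numbered 9786 and 10657 in the G365R lists and 11071 in the WT list, a ratio of 0.923. As a share of the list they made up 32.0% and 34.9% in G365R and 29.5% in WT, a gap to WT that is of the size of the gap between the clones.

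Most strong G365R sites were WT sites. Windows of 100 bp around each summit were merged over the 3 lists into 52143 regions, and a list was counted at a region when one of its summits fell there. All 3 lists shared 18378 regions (35.2%). Another 2297 regions (4.41%) were in both G365R lists and not in the WT list, 11691 (22.4%) were in the WT list alone, 6395 were in the first G365R list alone and 6008 in the second G365R list alone. The first G365R list shared a further 3518 regions with the WT list alone, and the second a further 3856. Each G365R clone thus had more regions of its own than the pair of clones had in common without WT.

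Regions of a G365R clone were found in the WT list at about the share found in the list of the other G365R clone. Of 30588 regions of the first clone, 28.4% were absent from the WT list (exact Clopper-Pearson 95% interval 27.9 to 28.9%) and 32.4% from the list of the second clone. Of 30539 regions of the second clone, 27.2% (26.7 to 27.7%) were absent from the WT list and 32.3% from the list of the first. The mean share absent from WT was 27.8 ± 0.864% (SD, n = 2), below the 32.4 ± 0.0767% absent from the other clone. The WT list is longer and has more regions to match, and with all 3 lists trimmed to the length of the shortest the shares were 32.4% absent from WT and 32.5% absent from the other clone. At equal length, then, the WT clone was as near to a G365R clone as the G365R clones were to each other. These intervals cover counting error only.

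Seen from the WT side, 31.2% of 37443 regions (30.8 to 31.7%) were in neither G365R list. Its regions were absent from the first G365R clone in 41.5% and from the second in 40.6% of cases. Over all regions of a pair of lists, the shared part (the Jaccard index) was 0.475 and 0.486 between a G365R clone and WT and 0.511 between the G365R clones.

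Presence in another list followed peak strength far more than genotype. When each list was ordered by −log10 q, the authors' adjusted significance, and divided into 10 deciles, 99.4% to 99.7% of the regions in the strongest decile were found in each of the other lists. In decile 5, regions of the first G365R clone were found in the WT list in 68.1% and in the second clone in 63.2% of cases, and those of the second clone in 71.6% and 61.6%. In the weakest decile the shares were 34.7% in WT and 28.5% in the other clone for the first clone, and 34.6% and 31.9% for the second. WT regions of the weakest decile were found in 21.5% of cases in the first G365R clone and in 19.4% in the second. The regions that set the lists apart were therefore mostly weak ones, in G365R and in WT alike.

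**Figure D1:**
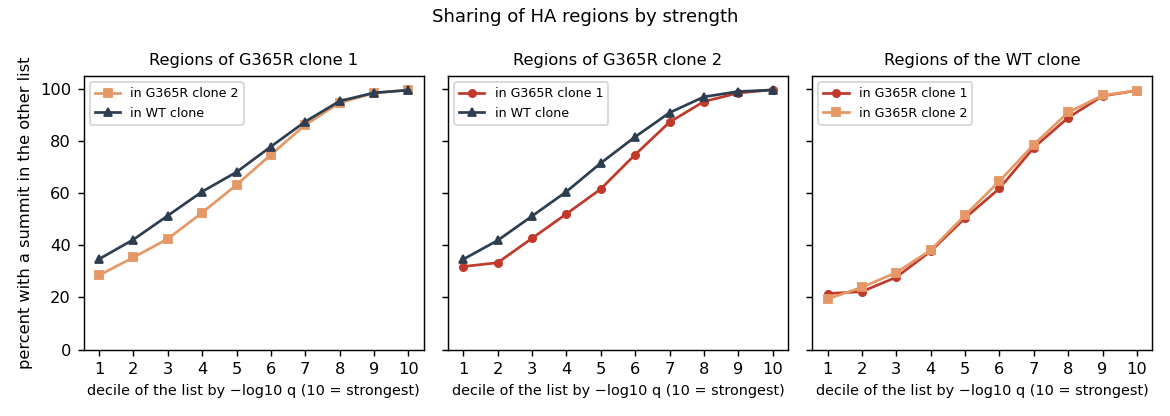
Percent of the HA regions of G365R clone 1 (left), G365R clone 2 (middle) and the WT clone (right) that have a summit in each other HA list (vertical axis), by decile of the list ordered by −log10 q, with 10 the strongest (horizontal axis). All curves end at 99.4% to 99.7%, and for both G365R clones the curve for WT lies above the curve for the other clone in deciles 1 to 9.

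Regions found in both G365R clones and not in WT were weak as well. Their median fold was 3.46 and 3.52 in the G365R clones, with median summit pileups of 30 fragments in each, whereas the regions shared by all 3 lists had a median fold of 4.84 and 4.98 in the G365R clones and 4.90 in the WT clone. A WT peak without a summit in the region overlapped 16.7% of them. The WT-only regions had a median fold of 3.42 and a median summit pileup of 23 fragments. A peak of the first G365R clone overlapped 4.14% of those and a peak of the second 4.95%. The median fold of both classes was below that of the shared regions.

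Setting such overlaps aside left 1913 regions with a summit in both G365R HA lists and no WT HA peak, and 10858 WT HA regions with no G365R HA peak. The TY1 lists, which were not used to choose them, show where wild-type RUNX1 of the same clones was found. Of the 1913 G365R regions, 80.7% and 81.4% had a summit in the TY1 lists of the G365R clones and 71.9% in the TY1 list of the WT clone, above the 64.4%, 66.9% and 66.9% of all 52143 regions. In none of the 3 TY1 lists were 8.89% of them, against 22.4% of all regions, and in none of the 11 other lists 4.03%, against 15.5%. The 1913 regions were chosen for a summit in both G365R HA lists. Of the 52143 regions, 24094 had a summit in a single HA list. The gaps between the 1913 and all regions therefore cannot be told apart from the way the 1913 were chosen. The TY1 lists are longer than the HA lists, with 57378 and 61793 peaks in the G365R clones and 59452 in the WT clone, and the WT TY1 share of 71.9% is near that of all regions.

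The 10858 WT regions rest on 1 list and not on 2, so their shares are not comparable with those of the G365R regions. The TY1 list of the WT clone held 47.2% of them, and the TY1 lists of the G365R clones held 33.9% and 41.3%. Of these WT regions 41.1% were in none of the 3 TY1 lists, 51.7% in no truncating list and 31.5% in none of the 11 other lists, against 22.4%, 26.6% and 15.5% of all 52143 regions. Regions with a summit in a single G365R HA list had like shares: those of the first clone alone were in none of the TY1 lists in 40.1%, in no truncating list in 37.2% and in none of the 11 in 26.3% of cases, and those of the second clone alone in 50.6%, 48.1% and 35.1%. The WT values thus lay in or near the range of regions found in 1 HA list. The same presence pattern under both tags was met at 193 of the 1913 G365R regions (10.1%). These were in both G365R TY1 lists and not in the WT TY1 list. The reverse, in the WT TY1 list and in neither G365R TY1 list, was met at 33 of the 1913 (1.73%). For the WT regions, presence under TY1 in the WT clone alone was met at 1070 (9.85%), and presence in both G365R clones alone at 2.75%. Over all 52143 regions these patterns took 3.56% (both G365R TY1 lists, not WT TY1) and 4.18% (WT TY1 only). Over the regions of a single G365R HA list they took 6.18% and 6.51% (both G365R TY1 lists, not WT TY1) and 4.50% and 4.68% (WT TY1 only). The pattern of presence thus recurred under the second tag in 10.1% and 9.85% of the 2 sets. With 1 WT clone, a pattern by genotype cannot be told apart from one by clone.

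The 5 strongest G365R regions with no WT HA peak were of moderate strength (coordinates here and below are hg19, counted from 1). On chromosome 1 at 72198084 to 72198322 the fold was 9.99 and 10.4 in the G365R HA lists, with 44 and 43 fragments at the summit. Under TY1 the fold there was 13.4 and 9.54 in the G365R clones and 5.67 in the WT clone. On chromosome 12 at 76178428 to 76178628 the HA fold was 8.77 and 12.6 in the G365R clones, and the TY1 fold was 16.2 and 20.8 in the G365R clones and 7.64 in the WT clone. In each of these regions wild-type RUNX1 of the WT clone had a TY1 peak, lower than those of both G365R clones.

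The third, on chromosome 5 at 14842318 to 14842523, had an HA fold of 8.07 and 7.82 in the G365R clones and a TY1 fold of 13.5 and 11.4 in the G365R clones and 10.03 in the WT clone. The fifth, on chromosome 2 at 119679172 to 119679376, had an HA fold of 6.92 and 7.58 in the G365R clones, beside a TY1 fold of 9.16 and 13.2 in the G365R clones and 4.96 in the WT clone. The fourth, on chromosome 10 at 123598551 to 123598770, differed from these in having no WT peak under either tag. Its HA fold was 7.15 and 9.72 and its TY1 fold 12.8 and 14.6 in the G365R clones. All 8 lists of truncating genotypes nevertheless had a summit there, so that the site was not confined to G365R clones.

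The 5 strongest WT regions with no G365R HA peak included a pair that no other genotype showed. On chromosome 13 at 32439620 to 32439820 the WT clone had an HA fold of 11.6, with 64 fragments at the summit, and a TY1 fold of 15.5. On chromosome 17 at 46225800 to 46226000 the WT clone had an HA fold of 11.5, with 63 fragments, and a TY1 fold of 13.6. No G365R list of either tag and no truncating list had a summit at either region. Sites found in the WT clone alone under both tags thus existed well above the median fold of 3.85, and whether they belong to the clone or to the genotype cannot be told apart.

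At the other 3 a G365R TY1 list also had a summit. On chromosome 12 at 65370028 to 65370228 the fold was 10.7 in the WT HA list and 13.6 in the WT TY1 list, and a TY1 peak of 7.05-fold was present in the second G365R clone. On chromosome 2 at 221440772 to 221440972 the TY1 fold was 5.16 and 6.68 in the G365R clones and 9.05 in the WT clone, which had 10.6-fold under HA. On chromosome 3 at 17130465 to 17130665 the TY1 fold was 3.74 and 3.27 in the G365R clones and 10.9 in the WT clone, which had 9.88-fold under HA, and all 8 truncating lists had a summit there. In these 3 regions the G365R clones were lower under TY1 and below detection under HA.

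A stretch of chromosome 21 stood out among regions present in G365R clones and in the WT HA list. Over the 190855 regions of all 14 lists, 35 had a summit in both G365R HA lists, the WT HA list and both G365R TY1 lists and in none of the other 9 lists, a rule set after these values had been seen. Of the 35, 6 lay on chromosome 21 in a span of 168 kb, each within 100 kb of the next, and none of the other 29 had a neighbour of its kind within 100 kb. No peak of the WT TY1 list or of the truncating lists overlapped the 6 at any point, although the WT HA and WT TY1 lists bear the name of the same clone and, over regions in all lists of G365R and WT, the WT HA list was nearer in fold rank to the WT TY1 list than to any G365R list (Spearman 0.928, against at most 0.882).

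Of these 6 regions the strongest, at 36164557 to 36164780, had 381 and 273 fragments at the summit in the G365R HA lists, 406 and 437 in the G365R TY1 lists, and 172 in the WT HA list. The region at 36171539 to 36171791 had an HA fold of 30.9 and 19.5 in the G365R clones and 9.66 in the WT clone, and that at 36252860 to 36253075 had 26.3 and 17.1 in the G365R clones and 6.98 in the WT clone. At 36206641 to 36206881 the HA fold was 6.72 and 4.63 in the G365R clones and 2.77 in the WT clone. At 36231706 to 36231914 it was 13.2 and 6.53 in the G365R clones and 2.54 in the WT clone. The last region, at 36085058 to 36085289, was weak, with an HA fold of 5.54 and 3.45 in the G365R clones and 3.10 in the WT clone.

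At all 6 regions both G365R HA lists exceeded the WT HA list in fold, and the ratio of the G365R mean to WT ran from 1.45 to 3.87, beside a median of 1.006 over the regions in all 3 HA lists and of 1.22 over the other 29. In 5 of the 6 the summit pileup was also higher in both G365R HA lists than in the WT HA list, although over all common regions the median pileup ratio was 0.745. In those 5 regions the first G365R clone also exceeded the second under HA, and the TY1 fold of both G365R clones exceeded the WT HA fold. RefSeq places the RUNX1 gene itself on chromosome 21, in the later build GRCh38.p14. Coordinates were not converted between builds, so whether any of these regions lies in RUNX1 was not determined. Whether these peaks mark binding of RUNX1 was not tested, nor why the WT HA and WT TY1 lists differ there, and the folds and fragments at the 6 regions are given as values of the lists and not as strengths of binding sites.

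**Figure D2:**
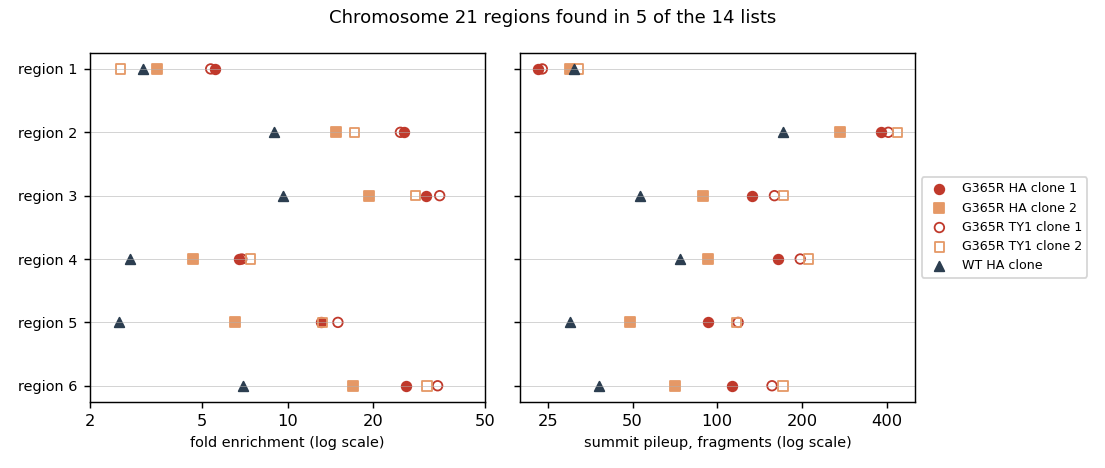
Fold enrichment (left) and summit pileup in fragments (right), both on log scales, at the 6 chromosome 21 regions found in 5 of the 14 lists, in order of position from top to bottom, with HA lists as filled and G365R TY1 lists as open symbols. In regions 2 to 6 the WT HA triangle lies left of both G365R HA symbols in both panels, and in region 1 only in fold.

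Where all 3 lists had a site, its rank by fold was nearly as similar between G365R and WT as between the G365R clones. Over the 18378 common regions the Spearman correlation of fold was 0.866 and 0.881 between a G365R clone and WT and 0.885 between the clones. For summit pileup it was 0.938 and 0.944 with WT and 0.957 between the clones. These describe regions of the same libraries, which share sequence, mappability and depth, and carry no test. The SD of the log2 ratio of fold was 0.44 and 0.42 for G365R over WT and 0.38 for clone over clone, and 2.85%, 2.31% and 1.45% of regions differed by more than 2-fold. Under each of these measures of fold and pileup the clone pair was somewhat closer than a G365R clone and WT, by less than the distance any pair lay from identity. Other ranks did not keep this order. For −log10 p the Spearman value was 0.783 and 0.820 with WT and 0.817 between the clones. For local background it was 0.952 and 0.957 with WT and 0.955 between the clones.

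**Figure D3:**
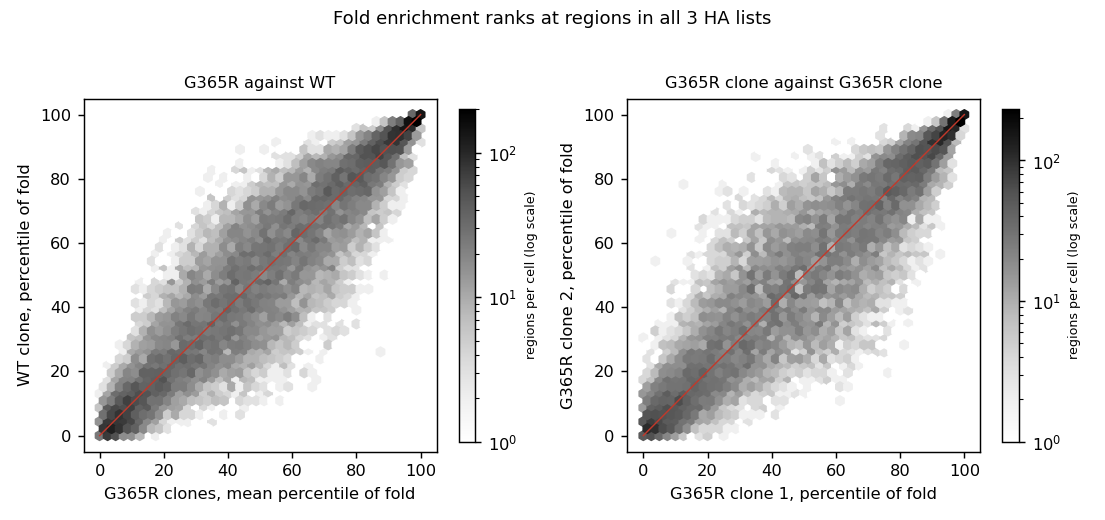
Percentile of the authors' fold within each list at the 18378 regions in all 3 HA lists, as the mean of the G365R clones (horizontal) against the WT clone (vertical) on the left, and clone 1 (horizontal) against clone 2 (vertical) on the right, with the number of regions per hexagon in grey on a log scale and equality in red. Both clouds narrow at the strong end and are of similar width, with mean absolute differences of 10.9 and 10.2 percentile points for each clone against WT and 9.99 points between the clones.

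The 5 regions of highest mean rank were high in all 3 lists by construction of the rule. Their values are given as a description and cannot show how level the top was. On chromosome 10 at 125532440 to 125532761 the fold was 77.7 and 80.3 in the G365R clones and 72.3 in the WT clone, with 338 and 338 fragments at the G365R summits and 439 at the WT summit. On chromosome 9 at 83617275 to 83617478 the fold was 70.8 and 74.4 in the G365R clones and 71.2 in the WT clone. On chromosome 4 at 164816606 to 164816832 it was 61.1 and 61.4 in the G365R clones and 68.5 in the WT clone. The regions on chromosome 10 at 96059310 to 96059528 (65.1 and 59.7 in G365R, 58.7 in WT) and on chromosome 1 at 152365350 to 152365554 (54.7 and 61.1 in G365R, 63.9 in WT) completed the 5. G365R was higher in 2 of them and lower in 2, and in the region on chromosome 9 WT lay between the clones. Of the 1000 regions of highest fold in a G365R clone, 741 and 750 were also among the 1000 of WT, and 791 were shared by the clones. All 3 lists had 659 in common, both G365R clones and not WT had 132, and WT alone had 168.

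Summits of missense and wild-type RUNX1 lay at the same positions within the spread between clones. The median distance between summits at common regions was 29 bp for each G365R clone to WT and 30 bp between the G365R clones. Distances of at most 10 bp made up 21.1% and 21.3% of the pairs with WT and 21.003% of the pairs of clones, and distances above 100 bp made up 9.50% and 10.1% of the pairs with WT and 11.002% of the pairs of clones. Among the 4594 strongest common regions the median was 19 bp in all 3 pairs, and among the 4595 weakest it was 49, 51 and 52 bp. Peaks at common regions were narrower in G365R, with median widths of 460 and 458 bp in the G365R clones and 501 bp in the WT clone. Their median summit pileup was 55 fragments in each G365R clone and 81 fragments in WT, a ratio of 0.679, and the local background had a ratio of 0.643. Pileup and background thus differed by about the same factor, and median fold was 4.84 and 4.98 in the G365R clones and 4.90 in the WT clone.

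The fold of 5 regions, 0.0272% of the 18378 tested, was called different by limma on normal scores of the ranks of fold, all 5 higher in G365R and 0 lower, at an adjusted p threshold of 0.05. Changes are in units of the SD of the scores within a list. The test has 1 residual degree of freedom per region, from the G365R clones, and the lone WT list is assumed to vary like them. Its p thus sets 1 WT clone against the spread of 2 G365R clones and does not test the genotype apart from the clone. At an unadjusted p under 0.05 limma counted 1247 regions, 6.79% of the 18378 tested, of which 731 were higher in G365R. The threshold alone would pass a share not far below this without any difference. It called 0 regions with centred log2 fold in place of ranks, with no trend, with all 7 HA lists of the series, or without either G365R clone. No more than 5 being called, all are given.

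On chromosome 11 at 36706502 to 36706722 the fold was 89.3 and 79.9 in the G365R clones and 43.4 in the WT clone, a change of 1.17 ± 0.09 (SE, limma adjusted p = 0.00268). On chromosome 10 at 1296023 to 1296237 it was 69.7 and 76.5 in the G365R clones and 35.3 in the WT clone (1.15 ± 0.08, limma adjusted p = 0.0011). On chromosome 7 at 92384426 to 92384661 it was 74.98 and 75.1 in the G365R clones and 38.1 in the WT clone (1.06 ± 0.06, limma adjusted p = 0.000949). At all 3 the G365R fold was about double that of WT, and the clones did not overlap with WT. On chromosome 16 at 34794994 to 34795221 it was 48.4 and 46.7 in the G365R clones and 21.04 in the WT clone (1.03 ± 0.11, limma adjusted p = 0.0351). On chromosome 3 at 106718102 to 106718334 it was 60.2 and 57.8 in the G365R clones and 34.5 in the WT clone (0.83 ± 0.08, limma adjusted p = 0.00852). These were among the strongest sites of all lists, at percentiles of 96.5 or more in WT. The mean G365R percentile of fold was higher than that of WT by only 0.31 to 3.29 points. At the end of a list a small change of percentile is a large change of score.

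Under HA the higher fold went with a lower local background and not with a higher unscaled number of fragments at the summit. These numbers are not corrected for depth: over the common regions the median ratio of G365R to WT was 0.679 for pileup and 0.643 for background. At all 5 the summit fragments of G365R were below WT by less than that pileup ratio. On chromosome 11 the summit had 386 and 398 fragments in the G365R clones and 447 in the WT clone, over a background of 3.33 and 3.99 in the G365R clones and 9.33 in the WT clone. On chromosome 7 it had 324 and 316 fragments in the G365R clones and 393 in the WT clone, over a background of 3.33 and 3.22 in the G365R clones and 9.33 in the WT clone. On chromosome 16 the summit had 209 and 196 fragments in the G365R clones and 236 in the WT clone, over 3.33 and 3.22 in the G365R clones and 10.3 in the WT clone. The other 2 had the same pattern, with WT backgrounds of 12.1 on chromosome 10 and 8.396 on chromosome 3 and G365R backgrounds between 3.22 and 5.09. By ranks of summit pileup none of the 5 was called, and the chromosome 11, 10, 7 and 3 regions changed sign, with changes of -0.12, -0.19, -0.14 and -0.10. At all 5 the fold was higher and the background lower in both G365R clones under TY1 too. On chromosome 7 wild-type RUNX1 had a fold of 69.7 and 65.2 in the G365R clones and 31.3 in the WT clone, over backgrounds of 3.68 and 4.54 in the G365R clones and 9.98 in the WT clone. Summit fragments under TY1 had been scaled in the WT list and in that of the first G365R clone, but not in that of the second. Whether the order of summit fragments under HA recurred under TY1 therefore cannot be decided from them. On chromosome 11 the TY1 fragments numbered 366 and 402 in the G365R clones and 360 in the WT clone. On chromosome 16 they numbered 263 and 251 in the G365R clones and 248 in the WT clone. On chromosome 3 they numbered 285 and 281 in the G365R clones and 299.7 in the WT clone. Why the WT background was higher at these 5 sites was not tested.

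Ranks of the summit pileup, which carry no background estimate, called 3 regions (0.0163%), 2 higher in G365R (0.0109%) and 1 lower (0.00544%). On chromosome 18 at 5942655 to 5942874 the summit had 53 and 57 fragments in the G365R clones and 22 in the WT clone, a score change of 1.90 ± 0.25 (SE, limma adjusted p = 0.0142), and under TY1 61.7 and 74 fragments in the G365R clones and 33.5 in the WT clone. On chromosome 5 at 57338864 to 57339100 it had 42 and 34 fragments in the G365R clones and 180 in the WT clone (-1.55 ± 0.20, limma adjusted p = 0.0142), and under TY1 45.7 and 75 in the G365R clones and 199 in the WT clone. The third, at 36164566 to 36164780, was the strongest of the chromosome 21 regions described above (1.50 ± 0.21, limma adjusted p = 0.0217), and the limit given there holds for it. By ranks of fold their limma adjusted p was 0.279, 0.295 and 0.644. TY1 fragments had been scaled in the WT list and in that of the first G365R clone, but not in that of the second. In the first 2 regions both G365R clones lay on the same side of WT under TY1 as under HA, by fold as well. The TY1 fold on chromosome 18 was 13.5 and 13.5 in the G365R clones and 6.09 in the WT clone. On chromosome 5 it was 10.1 and 13.7 in the G365R clones and 34.4 in the WT clone. At the chromosome 5 region the order of the G365R clones was not the same under the tags.

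A looser, untested description asked where the WT percentile of fold lay outside the range of the G365R clones by more than the gap between them. This held for 6603 of the 18378 common regions (35.9%), with 3333 (18.1%) higher and 3270 (17.8%) lower in G365R. Summit pileup gave 7211 such regions (39.2%), with 3836 (20.9%) higher and 3375 (18.4%) lower. A single list set against a pair of lists often meets this rule even without a difference between genotypes. The share to be met in that case was not computed, so these shares do not count regions that differ by genotype. The numbers on the 2 sides were close by either measure, and changes of fold of at least 20 percentile points were found at 827 regions on the higher and 753 on the lower side.

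The 5 regions with the largest percentile gain in G365R had limma adjusted p of 0.258 to 0.489 and are given as values. On chromosome 14 at 98605009 to 98605470 the fold was 7.99 and 7.21 in the G365R clones and 2.19 in the WT clone, with 37 and 35 fragments at the G365R summits and 38 at the WT summit. The background there was 3.75 and 3.99 in the G365R clones and 16.8 in the WT clone, so that the region repeats the pattern of the called ones at a weaker site. On chromosome 6 at 4432757 to 4432984 the summit itself was higher, with 48 and 45 fragments in the G365R clones and 24 in the WT clone, and the fold was 11.3 and 9.62 in the G365R clones and 3.24 in the WT clone. On chromosome 2 at 135169442 to 135169721 the fold was 10.8 and 11.1 in the G365R clones and 3.34 in the WT clone. The summit there had 130 and 131 fragments in the G365R clones and 102 in the WT clone, over backgrounds of 11.1, 10.9 and 29.9. On chromosome 5 at 58423347 to 58423669 the fold was 9.10 and 7.07 in the G365R clones and 2.71 in the WT clone. The summit there had 64 and 54 fragments in the G365R clones and 85 in the WT clone, over backgrounds of 6.14, 6.78 and 30.8. The chromosome 5 region thus had the pattern of the chromosome 14 region. The remaining region was that of chromosome 21 at 36231706, for which the limit given above holds. In these 4 regions outside chromosome 21 the TY1 fold was also higher in both G365R clones than in the WT clone.

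The 5 regions with the largest percentile loss in G365R had limma adjusted p of 0.557 to 0.638. On chromosome 1 at 235098998 to 235099229 the summit had 53 and 67 fragments in the G365R clones and 134 in the WT clone, and the fold was 2.91 and 3.35 in the G365R clones and 7.59 in the WT clone. On chromosome 9 at 79184761 to 79185018 it had 31 and 21 fragments in the G365R clones and 68 in the WT clone, with a fold of 3.00 and 3.15 in the G365R clones and 7.41 in the WT clone. On chromosome 10 at 119590419 to 119590626 the fold was 4.11 and 2.33 in the G365R clones and 8.72 in the WT clone, and on chromosome 20 at 46620959 to 46621246 it was 3.74 and 2.45 in the G365R clones and 8.01 in the WT clone. In these 4 regions the WT summit was the highest in fragments, and the WT fold was also the highest under TY1. Fragments are not corrected for depth, and the median pileup ratio over common regions was 0.679. The background was 8.25 and 16.6 in the G365R clones and 8.06 in the WT clone on chromosome 10. On chromosome 20 it was 7.02, 7.98 and 5.24 in the same order, and on chromosome 1 17.6, 19.3 and 16.8. On chromosome 9 it was 9.65 and 5.99 in the G365R clones and 8.31 in the WT clone. The fifth, on chromosome 2 at 177418913 to 177419338, had an HA fold of 2.49 and 2.24 in the G365R clones and 5.90 in the WT clone, but a TY1 fold of 8.97 and 9.57 in the G365R clones and 6.48 in the WT clone. At that region the HA summit had 20 and 20 fragments in the G365R clones and 32 in the WT clone. The HA background was 7.42 and 8.35 in the G365R clones and 4.59 in the WT clone. The TY1 background was 3.68 and 4.54 in the G365R clones and 6.09 in the WT clone. Of these 10 regions it was the one at which the fold of wild-type RUNX1 in the same clones went the other way, and the background changed sides too.

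**Figure D4:**
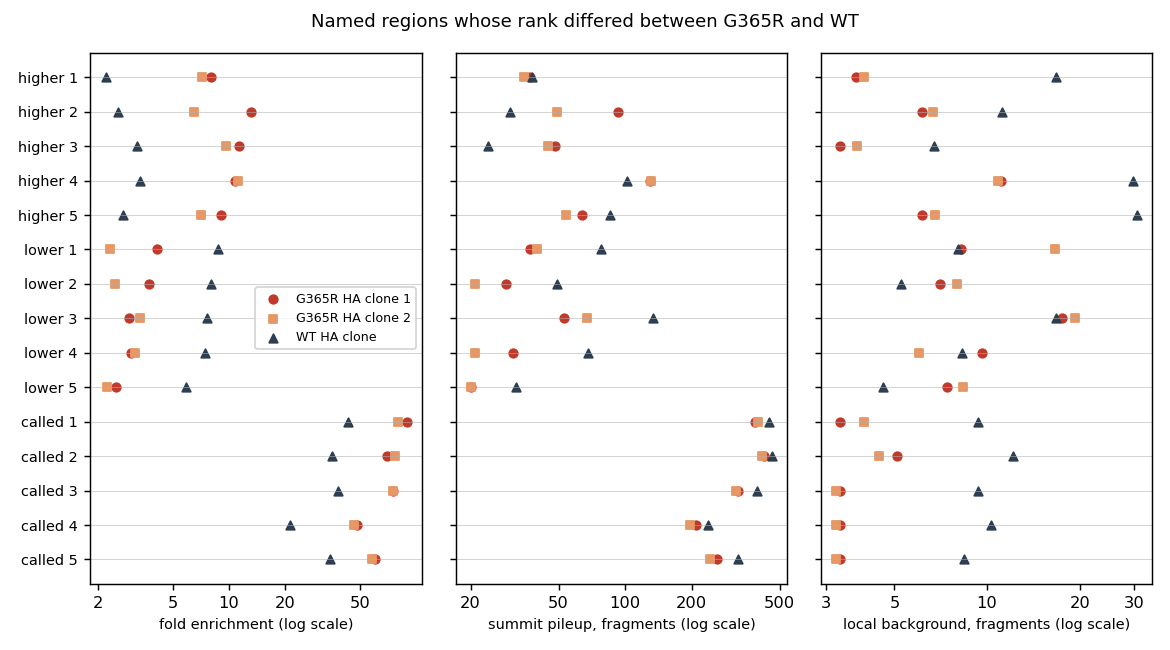
Fold enrichment (left), summit pileup (middle) and local background (right), the last 2 in fragments and all on log scales, in the G365R HA lists and the WT HA list at the 5 regions with the largest percentile gain (higher 1 to 5), the 5 with the largest loss (lower 1 to 5) and the 5 called by limma on ranks of fold (called 1 to 5). At the called regions the WT triangle lies right of both G365R symbols in pileup and background and left of them in fold, whereas at lower 1 to 5 it lies right of them in pileup.

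Differences between G365R and WT were partly the same under HA and TY1. Over 17711 regions found in the 3 HA and 3 TY1 lists, the G365R minus WT difference in normal score of fold under HA correlated across regions with that under TY1 (Pearson's r = 0.618), and that of summit pileup with r = 0.539. Taking 1 clone at a time, the pileup value was 0.518 with the first G365R clone and 0.427 with the second. The difference between the G365R clones themselves recurred less, with r = 0.431 for fold and 0.232 for pileup. TY1 marked wild-type RUNX1 in all 3 clones, so a difference seen under both tags was not confined to the missense protein. These values describe regions and carry no test, since HA and TY1 lists of a clone share its DNA and may share a control library, which is not given in the sources used here.

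The size of the differences under HA was slightly larger between genotypes than between clones. The SD over the 18378 common regions of the log2 ratio of pileup was 0.40 for the first and 0.36 for the second G365R clone over WT, and 0.33 for clone over clone. In fold rank an HA list lay nearer to the TY1 list of its own clone (Spearman 0.887 and 0.905 in the G365R clones, 0.928 in the WT clone) than a G365R HA list lay to the WT HA list (0.866 and 0.882). Other pairs went against a plain order by clone. The Spearman value was 0.885 between the HA lists of the G365R clones and 0.906 between their TY1 lists, so that lists of one tag and different clones were about as near as the HA and TY1 lists of a G365R clone. Under TY1 it was 0.881 and 0.908 between a G365R clone and WT. Neither clone nor tag alone ordered the lists on these ranks.

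**Figure D5:**
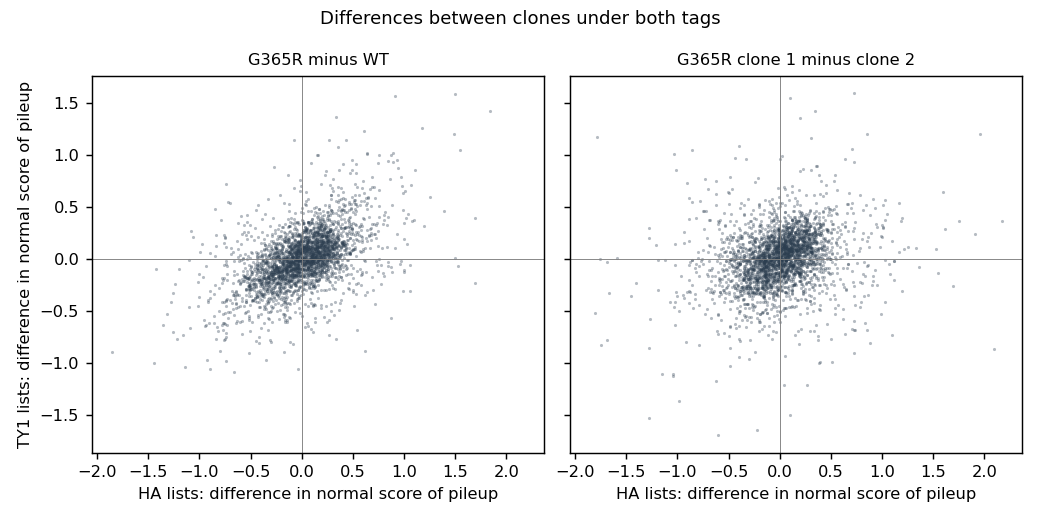
Difference in normal score of summit pileup under TY1 (vertical) against that under HA (horizontal), for the mean of the G365R clones minus WT on the left and G365R clone 1 minus clone 2 on the right, at 3000 regions drawn from the 17711 in all 6 lists. The left cloud is tilted along the diagonal (r = 0.539 over all 17711) and the right one less so (r = 0.232).

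The share of peaks on high local background differed mainly between the G365R clones. Peaks whose background exceeded 8 times the lowest of their list, a threshold chosen after the values were seen, made up 26.1% and 18.1% of the G365R lists and 15.1% of the WT list. Their median fold was 2.25 and 2.35 in the G365R clones and 2.24 in the WT clone, against 4.60, 4.57 and 4.12 for the other peaks of the same lists. The clones differed from each other by more than the second did from WT, so that no difference by genotype beyond the spread of clones was seen. Among regions found in a single HA list, such peaks made up 32.1% in the first G365R clone, 6.56% in the second and 3.83% in WT.

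The share of peaks per chromosome was similar in the 3 lists. The WT share of peaks lay outside the range of the G365R clones in 17 of 23 chromosomes, by more than the gap between the clones in 7. A single list set against a pair often does so without a difference between genotypes, and these counts carry no test. Chromosome 19 held 3.03% and 2.72% of the G365R peaks and 2.42% of the WT peaks, and chromosome 17 held 4.37% and 4.17% of the G365R peaks and 3.87% of the WT peaks. Chromosome 13 held 4.01% and 4.53% in G365R and 4.84% in WT. The share of high-background peaks was higher in both G365R clones than in WT on each of these chromosomes, as over the whole lists. On chromosome 19 it was 57.1% and 43.0% in the G365R clones and 39.0% in the WT clone. On chromosome 17 it was 41.7% and 33.6% in the G365R clones and 29.6% in the WT clone. On chromosome 13, where G365R had the lower share of peaks, it was 16.0% and 10.4% in the G365R clones and 8.37% in the WT clone. In every list this share was thus above that of the whole list on chromosomes 19 and 17 and below it on chromosome 13. Whether the shares of peaks follow it over all chromosomes was not tested.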

How the data were processed

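The authors deposited 1 narrowPeak table for each library. The submitters' processing notes name CASAVA 1.8, Bowtie2 2.2.9, MACS2 2.2.7.1 and the build hg19. How the caller was set, and which control libraries it had, is not stated in the labels or file headers. For each peak the authors deposited a score, a fold enrichment (linear ratio), a −log10 p-value, a −log10 q-value and a summit offset. Peaks on other sequences, 1.87%, 2.17% and 2.02% of the HA lists, were left out, and no list of artefact-prone regions was applied.

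From these, summits (start plus offset) were widened by 100 bp on each side and merged over the 3 HA lists where they overlapped by at least 1 bp. Pileup and background were solved from fold and p with the caller's Poisson formula and a pseudocount of 1, and the deposited fold, pileup and −log10 values were compared between lists as ranks, medians or counts past a threshold. Pileups of 2 TY1 lists (first G365R clone and WT) were not whole numbers and had been scaled. The WT clone and both G365R clones were grouped by label, and HA and TY1 lists were tied to clones by the clone names of the deposited lists. Normal scores of fold ranks at regions in all 3 lists were fitted with limma 3.58.1 (trend, Benjamini-Hochberg over 18378 regions, threshold 0.05) in R 4.3.3. Procedures were tested on simulated data. Python 3.11.15, numpy 2.4.6, pandas 2.3.3, scipy 1.17.1 and matplotlib 3.10.9 were used.

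The lists compared, the tests and the rules for naming regions were chosen with earlier results of these data known. Regions were named as the 5 of highest mean percentile of fold, the 5 strongest of each genotype with no peak of the other, the 5 largest percentile changes in each direction outside the clones' range, and all limma calls. The regions called on pileup ranks and the chromosome 21 group were added after values were seen. With no hg19 genome or annotation at hand, regions are named by position, and planned lookups of genes, motifs and marker genes were not run. Alternatives were stricter peak thresholds, other windows, equal list length, any overlap, other ranks, other sets of lists and leaving out a clone.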

Additional observations from a re-analysis of the deposited data

How the results depend on the processing

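The ratio of peak numbers, G365R over WT, was 0.818 with −log10 q of at least 5, 0.923 with a fold of at least 5, and 0.816 to 0.817 without either clone. The mean share of G365R regions absent from WT was 23.6% with the stricter q, 34.4% with 50 bp windows, 23.6% with 250 bp windows, 23.6% with whole peaks, 32.4% at equal length, 24.1% with any overlap, 28.8% with low background only (added after the values were seen), and 27.8% to 29.0% leaving out a clone. The share absent from the other clone was 29.2%, 38.6%, 28.8%, 28.9%, 32.5%, 29.6% and 35.4% in the same order, so that the WT share was the lower in each of these, by least at equal length. The share of WT regions in neither G365R list was 27.6%, 36.7%, 27.9%, 28.6%, 22.7%, 29.0% and 36.3% in that order, and 41.1% to 42.0% against a single clone. Median summit distance was 26.5 bp with the stricter q, 26 bp with 50 bp windows, 31 bp with 250 bp windows or whole peaks, and 31 bp without either clone. Overlap of the 1000 strongest moved by less than the spread of the clones, with 741 to 750 for single clones. Rank agreement was 0.802 by −log10 p, 0.941 by pileup, and 0.863 with single clones. limma called 12 regions with 50 bp windows (9 higher, 3 lower), 53 by ranks of −log10 p (37 higher, 16 lower), 3 by pileup, 2 with the 6 lists of both tags, 28 with low background only (27 higher, 1 lower), and 0 with centred log2 fold (1178 at unadjusted p under 0.05), with no trend (1106), with all 7 HA lists (283) and without either clone (196 and 264, with the spread of the 7 HA lists, since the 3 lists alone leave no residual degrees of freedom). The counts at unadjusted p were 6.41% of the regions with centred log2 fold, 6.02% with no trend and 2.34% with all 7 HA lists. The cause of the different numbers of calls was not tested. The 5 called regions were also among the calls with the stricter q, every window, whole peaks and low background, and 2 were with −log10 p and with 6 lists. Of 65 alternative values for them 29 kept the call, 32 kept only the direction, and 4 reversed by pileup ranks (-0.12, -0.19, -0.14 and -0.10). Of 108 for the 10 regions with the largest percentile changes 7 passed the threshold, and none changed direction. No paired analysis was possible because WT has 1 HA list and shares only 1 replicate number with G365R. Depth, known only through the lowest background, limits what an absent peak shows: a WT site could be listed at 14 fragments and a G365R site at 12, so weak unshared regions may lie below detection in the other list.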
